A study of Mus musculus with 14 samples.

Results

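T-ALL tumours from mice in which Lmo2 was switched on by a B cell Cre driver were compared with T-ALL tumours from Sca1-Lmo2 mice. The B-started arm held 3 libraries, which were the 2 Rosa26-Lmo2+Mb1-Cre tumours and the only Rosa26-Lmo2+Aid-Cre tumour. The other arm held 4 Sca1-Lmo2 tumours. Members were taken by their labels, and these 7 libraries were compared out of 14 in the series. The other 7 were 4 healthy wild-type (WT) thymuses from mice of 4 months and 3 Rosa26-Lmo2+Sca1-Cre tumours from mice of 9 months, and their values are given beside the comparison.

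In Rosa26-Lmo2 mice an Lmo2 cDNA sits in the ubiquitously active Rosa26 locus and stays silent until Cre acts. Mb1-Cre uses the Cd79a (Mb1) gene, which is active from early B cell precursors on, and Aid-Cre acts in germinal centre B cells. The recombined Rosa26 allele is built to stay on in daughter cells. In Sca1-Lmo2 mice Lmo2 is driven by the Ly6a (Sca1) promoter, which is active in blood stem and progenitor cells and also in some early T cells. The Mb1-Cre tumours came from mice of 20 months, the Aid-Cre tumour from a mouse of 22 months, and the Sca1-Lmo2 tumours from mice of 7 months for replicates 1 and 2 and 8 months for replicates 3 and 4. The age, the Rosa26-Lmo2 allele, the Cre transgene and the arm cannot be told apart in this design. The arms also differ in their breeding lines, and the study made the Sca1-Lmo2 transgene in fertilized eggs of a CBA cross. It injected Rosa26-Lmo2+Aid-Cre mice with sheep red blood cells to induce Lmo2 in germinal centre cells. The Aid-Cre genotype rests on 1 library. Arms are named by their labels throughout.

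LMO2 is a bridging protein with no DNA contact of its own. It joins LDB1, a bHLH factor such as TAL1 or LYL1 with its E protein partner, and a GATA factor into 1 complex, which is active in blood stem cells and normally silent in T cells. Kept on in developing thymocytes, LMO2 leads to T-ALL after a long latency, often with acquired NOTCH1 activation and in some cases with loss of the CDKN2A locus. By array CGH the study found Cdkn2a/b loss in a minority of its Sca1-Lmo2 leukaemias.

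Total counts lay between 42985130 and 47667663 per library. Levels are counts relative to library size (CPM) after TMM scaling, and a gene entered the test if 3 or more of the 14 libraries reached 1 CPM, which 17087 of the 46946 genes listed did. All 3 B-started libraries were male by Xist and Y-linked counts, while Sca1-Lmo2 replicates 1 and 3 were female and replicates 2 and 4 male. Sca1-Lmo2 replicates 1 and 3 stood closer to each other (r = 0.962 across genes) than any other pair of that arm (0.876 to 0.919). They also shared their most abundant receptor segments, with Trbv5 at 82.3% and 86.3% of Trbv counts and Trav3n-3 at 16.3% and 17.0% of Trav counts. Their counts differed by a chi-square of 210 per degree of freedom, the lowest of the 6 pairs of that arm (the others 234 to 425). The labels give them as separate samples of different age, so they were kept as 2, and the result with both merged is given beside the calls. Whether they came from 1 animal or 1 clone was not tested. The Aid-Cre tumour correlated no better with the Mb1-Cre tumours (0.892 and 0.883) than with the Sca1-Lmo2 tumours (0.894, 0.906, 0.884 and 0.874 for replicates 1 to 4), whereas the Mb1-Cre pair reached 0.933. Within-arm variation was large and alike in both arms, with a biological coefficient of variation of 0.557 in the B-started and 0.548 in the Sca1-Lmo2 arm, against 0.299 in WT thymus.

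All 7 tumours carried T cell transcripts. Lck, the kinase that starts T cell receptor signalling, lay between 845 and 1032 CPM in the B-started and between 792 and 1038 CPM in the Sca1-Lmo2 tumours. The summed level of 24 T cell identity genes was 7639 to 8007 CPM in the B-started arm and 8682 to 10307 CPM in the Sca1-Lmo2 arm, without overlap.

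The edgeR quasi-likelihood test over the 7 libraries called 9 genes at an adjusted p of 0.05 or less, 5 higher and 4 lower in B-started tumours. These were 0.0527% of all genes tested, 0.0293% in the higher and 0.0234% in the lower direction, and 3239 genes had an unadjusted p under 0.05. The higher genes were Cdkn2a, Spp1, Pdlim4, Gm8885 and Gm43549. The lower genes were Tmem35, Gm6969, Gm8000 and Olfr56. Calls depended on the libraries and the tool. No gene was called with Sca1-Lmo2 replicates 1 and 3 merged (2443 genes at an unadjusted p under 0.05), with sex as a term (2002), without Sca1-Lmo2 replicate 1 (2049) or 3 (2698), or without either Mb1-Cre tumour (2717 without replicate 1 and 1800 without replicate 2), in edgeR in each case. Without the Aid-Cre library edgeR called 3 genes, without Sca1-Lmo2 replicate 2 37 and without replicate 4 19. limma-voom called 0 (2807 at an unadjusted p under 0.05) and DESeq2 called 1432. With all 14 libraries sharing 1 estimate of the spread edgeR called 625, of which 328 were higher (1.92% of genes tested) and 297 lower (1.74%).

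**Figure D1:**
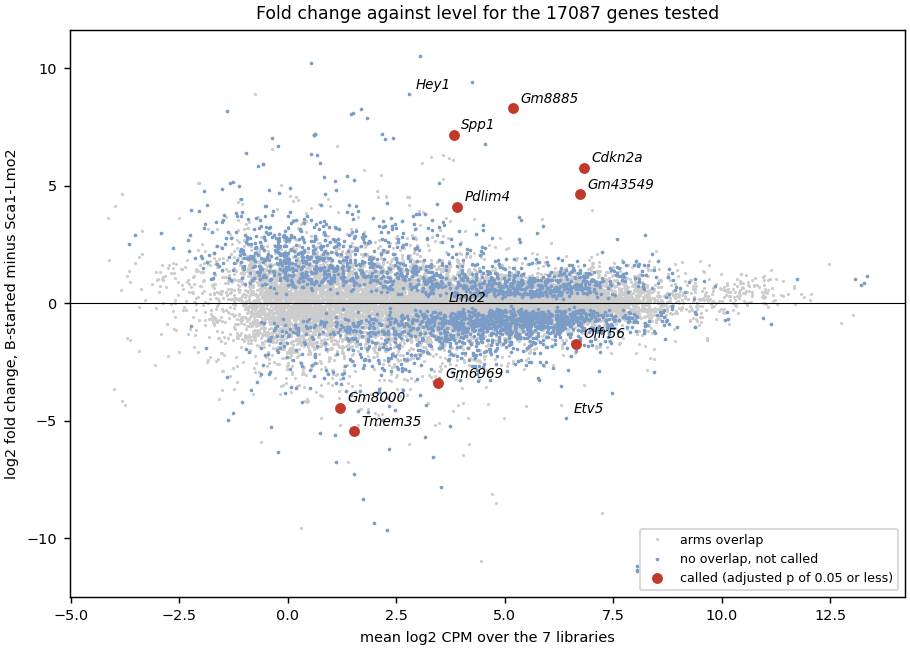
Each point is 1 of the 17087 genes tested, with the mean log2 CPM over the 7 libraries on the x axis and the log2 fold change (B-started minus Sca1-Lmo2) on the y axis. Blue points are genes whose arms did not overlap and red points are the 9 called genes. Lmo2 lies close to 0, and Hey1 and Etv5 lie far from it without a call.

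Lmo2 itself was at 3.96 and 6.99 CPM in the Mb1-Cre tumours and 22.2 CPM in the Aid-Cre tumour. The Sca1-Lmo2 tumours held 10.2, 17.6, 10.4 and 12.2 CPM. The Aid-Cre tumour was the highest of the 7 and the Mb1-Cre tumours the lowest, so the arms overlapped. The log2 fold change was -0.19 (SE 0.57, edgeR adjusted p = 0.880), and WT thymus was at 1.63 to 4.43 CPM. Mb1-Cre replicate 1 thus lay within the WT range, so its Lmo2 level does not show the Rosa26 allele to be on in that tumour. The Rosa26-Lmo2+Sca1-Cre tumours held 10.1, 5.83 and 8.35 CPM. Lmo2 overlaps the antisense gene 4931422A03Rik, which held 1.02 times its counts, and the libraries do not mark strand, so these levels are uncertain. By PCR and Western blot the study reported Lmo2 in Mb1-Cre tumour cells. It reported Lmo2 as lost in Sca1-Lmo2 tumours, by these methods and by immunohistochemistry. Why the counts here differ from those reports was not tested.

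Cdkn2a rose in B-started tumours, with the largest difference in CPM among the 9 called genes. The gene (ENSMUSG00000044303, chr4:89274471-89294653, mm10) encodes the CDK4/6 inhibitor p16Ink4a and the MDM2 inhibitor p19Arf from separate first exons. It stood at 299 and 384 CPM in the Mb1-Cre tumours and 112 CPM in the Aid-Cre tumour. Sca1-Lmo2 tumours held 2.47, 5.19, 3.31 and 8.28 CPM. The lowest B-started tumour was thus above every Sca1-Lmo2 tumour, and the means were 265 ± 139 (SD, n = 3) and 4.81 ± 2.58 CPM (n = 4), a ratio of 55.1. The log2 fold change was 5.78 (SE 0.59, edgeR adjusted p = 0.0337). WT thymus averaged 0.256 CPM, and the Rosa26-Lmo2+Sca1-Cre tumours held 5.87, 0.129 and 0.759 CPM, in the range of the Sca1-Lmo2 arm or below it. Cdkn2b, which encodes the CDK4/6 inhibitor p15Ink4b and lies 11636 bases away, was at 1.55, 1.11 and 2.11 CPM in B-started and 0.0906 to 0.466 CPM in Sca1-Lmo2 tumours. The arms did not overlap for Cdkn2b either, but it was not called (log2 fold change 2.60, SE 0.71, edgeR adjusted p = 0.149).

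The counts cover the whole span of Cdkn2a, so the Ink4a and Arf transcripts cannot be told apart. Its 2 RefSeq start sites have very different upstream sequences, shown here since the difference in counts could come from either. Each is the 250 bases before a start site on the minus strand (RefSeq, GRCm38.p6), with CG pairs in capitals. The first lies at chr4:89294620-89294869 and holds 40 CG pairs, more than 98.7% of all 32841 upstream windows of this length. The second lies at chr4:89282193-89282442 and holds 7, close to the median of 6.
Cdkn2a distal start: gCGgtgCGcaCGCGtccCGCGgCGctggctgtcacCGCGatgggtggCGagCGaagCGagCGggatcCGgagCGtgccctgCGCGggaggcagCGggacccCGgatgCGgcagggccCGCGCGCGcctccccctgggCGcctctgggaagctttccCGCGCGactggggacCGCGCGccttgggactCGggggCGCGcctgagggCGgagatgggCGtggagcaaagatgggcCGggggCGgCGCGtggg
Cdkn2a proximal start: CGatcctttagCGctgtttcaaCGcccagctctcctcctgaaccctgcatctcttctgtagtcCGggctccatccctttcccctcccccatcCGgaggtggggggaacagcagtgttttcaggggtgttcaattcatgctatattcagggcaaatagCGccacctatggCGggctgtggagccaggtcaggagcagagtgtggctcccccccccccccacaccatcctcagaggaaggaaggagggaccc

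Other genes of cell cycle control were described by whether all 3 B-started tumours lay above all 4 Sca1-Lmo2 tumours, which held for 7.85% of all genes tested. The list of G1 cyclins, CDK inhibitors and RB genes includes Cdkn2a and Cdkn2b, given above. Of its 16 members tested, 1 was called (Cdkn2a), 3 were higher without overlap (18.8%) and the median log2 fold change was -0.32. Beyond Cdkn2a and Cdkn2b, only Rb1 was higher without overlap. Cdkn1b, which encodes the CDK inhibitor p27, was at 37.1, 24.8 and 71.5 CPM in B-started and 46.0 to 108 CPM in Sca1-Lmo2 tumours (log2 fold change -0.57, edgeR adjusted p = 0.491). Trp53, which acts downstream of p19Arf, was at 110 to 140 CPM in B-started and 121 to 193 CPM in Sca1-Lmo2 tumours (edgeR adjusted p = 0.441). None of 17 p53 target genes tested was called, and 1 of them, the death receptor gene Tnfrsf10b, was higher without overlap (5.88%). Of 31 cell cycle genes, none was called and 3 were higher without overlap (9.68%), namely Tyms, Cenpe and Ccna2. The shares of the p53 target and cell cycle genes were thus near that over all genes.

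**Figure D2:**
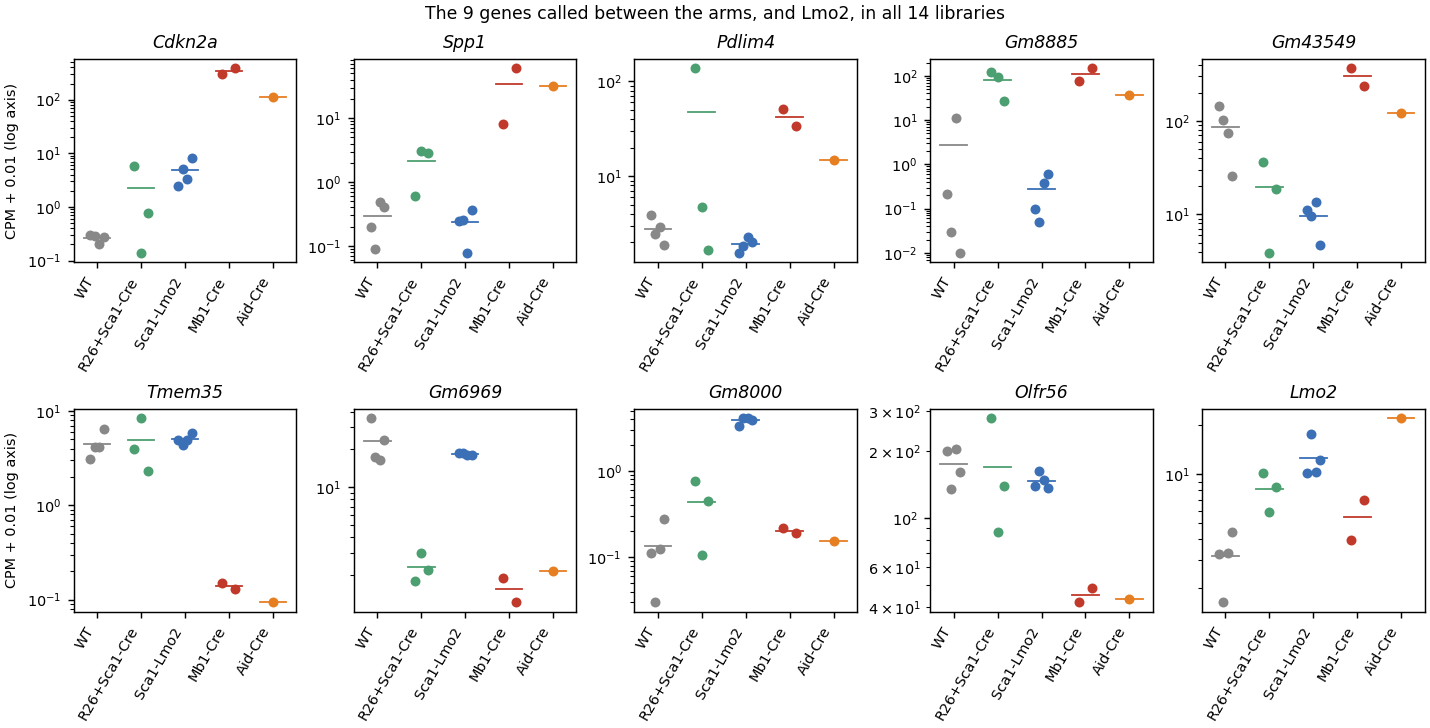
CPM in each of the 14 libraries on a log axis (0.01 added) for the 9 called genes and Lmo2, with 1 point per library and a bar at the group mean. Gm8885, Gm6969 and Gm8000 show the Rosa26-Lmo2+Sca1-Cre tumours (R26+Sca1-Cre) nearer to the B-started than to the Sca1-Lmo2 tumours, while Cdkn2a, Tmem35 and Olfr56 do not.

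Spp1 rose in B-started tumours. It encodes osteopontin, a secreted matrix protein made by macrophages, osteoclasts and activated T cells (ENSMUSG00000029304, chr5:104435118-104441050). It was at 8.15, 60.1 and 32.1 CPM in the Mb1-Cre replicates 1 and 2 and the Aid-Cre tumour. Sca1-Lmo2 tumours held 0.0679 to 0.353 CPM, from 3 to 17 counts each. The log2 fold change was 7.19 (SE 0.82, edgeR adjusted p = 0.0363). The summed level of 20 myeloid markers moved with it, at 418, 1882 and 746 CPM in the same 3 tumours and 174 to 338 CPM in the Sca1-Lmo2 arm. In the Rosa26-Lmo2+Sca1-Cre tumours this sum was 709 to 1649 CPM and Spp1 was at 0.593 to 3.09 CPM. These Spp1 levels lay between the 2 arms and above WT thymus (0.0794 to 0.474 CPM). The part of myeloid cells in the difference was not tested.

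Pdlim4 also rose. It encodes a PDZ and LIM domain protein of the actin cytoskeleton (ENSMUSG00000020388, chr11:54054928-54069014). It was at 50.8, 33.8 and 14.8 CPM in B-started and 1.54 to 2.26 CPM in Sca1-Lmo2 tumours, and the log2 fold change was 4.12 (SE 0.45, edgeR adjusted p = 0.0337). The Rosa26-Lmo2+Sca1-Cre tumours were split, with 138 CPM in replicate 1 against 4.77 and 1.66 CPM in the others. WT thymus averaged 2.77 CPM.

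Tmem35 had the largest fall in relative terms of the 9 called genes. It encodes a membrane protein known in mice as an assembly factor of nicotinic receptors (ENSMUSG00000033578, chrX:134295225-134305969). The Sca1-Lmo2 tumours held 4.34 to 5.89 CPM and the B-started tumours 0.0834 to 0.139 CPM, the latter from 4 to 6 counts each. The log2 fold change was -5.43 (SE 0.54, edgeR adjusted p = 0.0337). WT thymus averaged 4.47 CPM and the Rosa26-Lmo2+Sca1-Cre tumours 4.88 CPM, so that the B-started tumours alone were low.

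Olfr56 fell with an edgeR adjusted p of 0.0497 (log2 fold change -1.72, SE 0.21). Its levels were 41.8, 48.4 and 43.2 CPM in B-started and 136 to 162 CPM in Sca1-Lmo2 tumours. The listed span of this olfactory receptor gene (chr11:48978889-49135387) contains Tgtp1, Tgtp2 and Ifi47, which encode interferon-inducible GTPases and whose reads can count for it too. Tgtp1 averaged 4.64 ± 3.33 CPM in B-started and 33.0 ± 3.82 CPM in Sca1-Lmo2 tumours (log2 fold change -2.83, edgeR adjusted p = 0.125). Tgtp2 averaged 5.49 and 36.2 CPM and Ifi47 averaged 29.0 and 67.4 CPM. All 3 were lower without overlap, and the call for Olfr56 is uncertain as a statement about the receptor gene.

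The 4 remaining called genes carry predicted gene symbols, and 3 of them divided the tumours by line. Gm8885 was at 77.7, 148 and 36.8 CPM in B-started and 0.0405 to 0.602 CPM in Sca1-Lmo2 tumours (log2 fold change 8.31, edgeR adjusted p = 0.0337). The Rosa26-Lmo2+Sca1-Cre tumours were at 123, 95.4 and 27.3 CPM, in the range of the B-started arm or slightly below it. WT thymus was at 0.207, 0.0199, 10.95 and 0 CPM, so its mean of 2.79 CPM rests on replicate 3. Gm6969 was at 1.90, 1.20 and 2.15 CPM in B-started and 18.0 to 18.7 CPM in Sca1-Lmo2 tumours (log2 fold change -3.39, edgeR adjusted p = 0.0337). The Rosa26-Lmo2+Sca1-Cre tumours were again close to the B-started arm, at 1.78, 2.96 and 2.18 CPM, and WT thymus was at 16.3 to 35.6 CPM. All 6 tumours with the Rosa26-Lmo2 allele were therefore on 1 side for these genes. Gm8000 was at 3.36 to 4.14 CPM in Sca1-Lmo2 tumours and at 0.146 to 0.208 CPM in B-started tumours (log2 fold change -4.43, edgeR adjusted p = 0.0383). It was also low in WT thymus (0.126 CPM) and in Rosa26-Lmo2+Sca1-Cre tumours (0.433 CPM). Gm8000 lies on chromosome 15, 6417 bases from Ly6a, the gene whose promoter drives the Sca1-Lmo2 transgene. Gm43549 was at 367, 239 and 121 CPM in B-started and 4.69 to 13.5 CPM in Sca1-Lmo2 tumours (log2 fold change 4.64, edgeR adjusted p = 0.0337), with WT thymus between them on average at 86.8 CPM.

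Genes behind 2 of the drivers were measured in the tumours as well. Ly6a was at 0.672, 4.86 and 10.8 CPM in B-started and 18.8 to 55.5 CPM in Sca1-Lmo2 tumours, without overlap and without a call (log2 fold change -2.64, SE 0.82, edgeR adjusted p = 0.173). Cd79a was at 1.46 and 0.690 CPM in the Mb1-Cre tumours and 13.4 CPM in the Aid-Cre tumour, against 1.95 to 10.5 CPM in Sca1-Lmo2 tumours (adjusted p = 0.786 in edgeR).

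Because few genes were called, gene groups are described by how many members had all 3 B-started tumours above, or all below, all 4 Sca1-Lmo2 tumours. Over all genes tested this held for 1341 higher (7.85%) and 1417 lower (8.29%), and the median log2 fold change was -0.01. None of these group members was called by the edgeR test over the 7 libraries except Cdkn2a. In the edgeR fit with all 14 libraries, which called 1.92% of all genes higher and 1.74% lower, 8 of 20 myeloid, 4 of 16 dendritic and MHC class II, 3 of 16 BCL2 family, 2 of 6 adipocyte and 2 of 9 stromal and endothelial genes passed the threshold as higher. As lower, 4 of 15 LMO2 complex, 3 of 28 interferon, 3 of 15 RAS-ERK, 2 of 17 JAK-STAT5 and 1 of 21 chromatin genes did. So did 1 of 9 stromal and endothelial, 1 of 17 early progenitor and 1 of 24 coreceptor and selection genes. The same held for 1 of 22 T-ALL and 1 of 8 oncofetal genes. Also higher were 1 of 21 NOTCH, 1 of 16 G1 and RB and 1 of 18 NK and cytotoxic genes. WT thymus, which varied less than either arm, enters the spread of this fit. A stretch of chromosome 1 that holds a nuclear copy of mitochondrial sequence took 4.48%, 4.93% and 6.72% of counts in B-started and 2.34% to 3.31% in Sca1-Lmo2 libraries, without overlap, and its part in these differences was not tested. Since dropping a library eases the condition of no overlap, counts without 1 library are given beside the share over all genes in that setting and are no sign of stability.

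**Figure D3:**
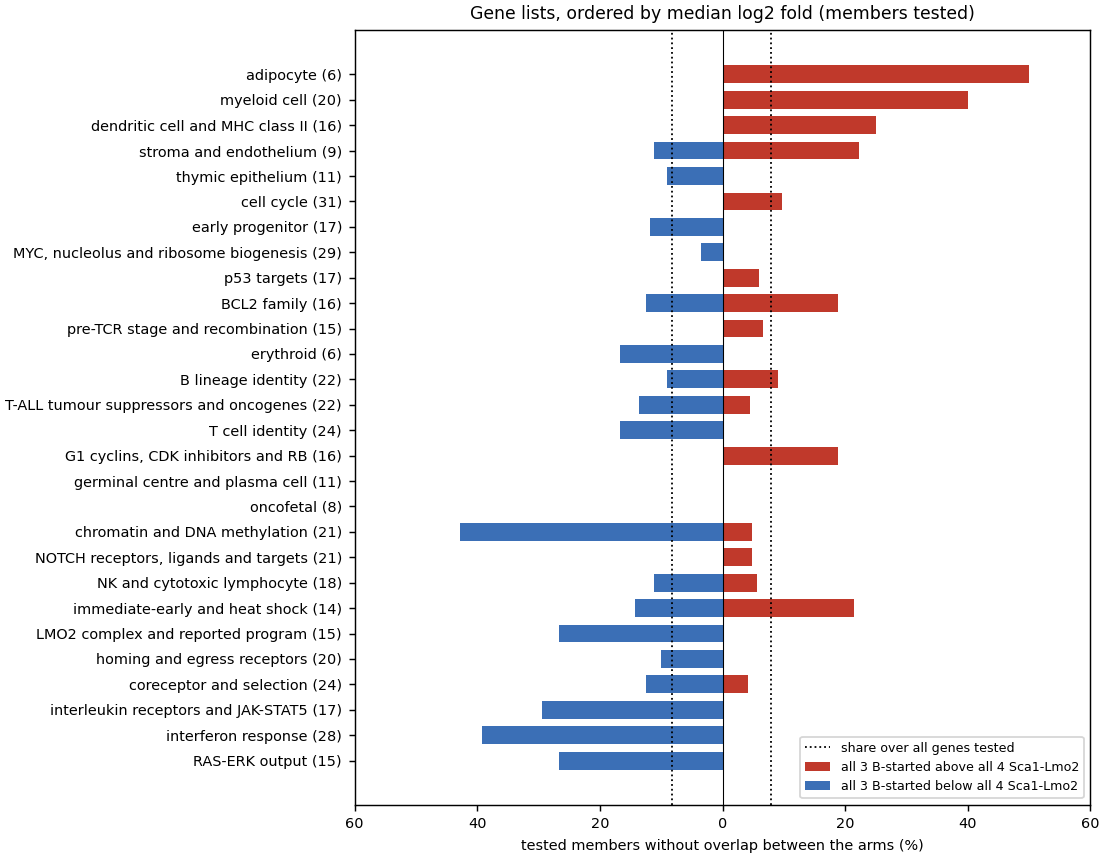
Share of tested members of 28 gene lists for which all 3 B-started tumours lay above (red, right) or below (blue, left) all 4 Sca1-Lmo2 tumours. Dotted lines mark 7.85% and 8.29%, the shares over all genes tested. Myeloid, dendritic and adipocyte markers extend to the right, and interferon, chromatin, JAK-STAT5 and RAS-ERK genes to the left.

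Part of the interferon response genes lay lower in B-started tumours. Of 28 tested, 11 were lower without overlap (39.3%) and none higher, and the median log2 fold change was -1.0. Usp18, which removes the ubiquitin-like ISG15 from proteins, was at 9.47, 29.1 and 10.6 CPM in B-started and 79.8, 43.8, 84.3 and 237 CPM in Sca1-Lmo2 tumours (log2 fold change -2.76, edgeR adjusted p = 0.134). Mx2, an antiviral GTPase, was at 0.255, 2.07 and 0.563 against 9.04, 6.30, 12.2 and 28.9 CPM (log2 fold change -3.88, edgeR adjusted p = 0.125). Rtp4, an interferon-induced chaperone, was at 2.15, 8.54 and 5.4 against 20.5, 33.6, 25.6 and 33.1 CPM (log2 fold change -2.40, edgeR adjusted p = 0.116). Sca1-Lmo2 replicate 4 was the highest of the 7 libraries for Usp18 and Mx2, and Mb1-Cre replicate 1 the lowest for all 3. The other members without overlap were Oas2, Oas3, Oasl2, Xaf1, Isg15, Isg20, Irf7 and Irf9, of which Irf9, part of the ISGF3 transcription factor, differed least (log2 fold change -0.92). The summed level of the list was 346 to 582 CPM in B-started, 705 to 1072 CPM in Sca1-Lmo2 and 528 to 772 CPM in WT libraries. Without the Aid-Cre library 17 members were lower without overlap, where the share over all genes was 19.4%. The median was -0.67 without Mb1-Cre replicate 1.

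Interferon genes are commonly read by factors that bind the interferon-stimulated response element, so the 250 bases upstream of each RefSeq start site were searched on both strands for GAAA followed by 2 bases of any kind and GAAA again. The letters were found upstream of 10 of the 21 list genes with an entry (47.6%) and in 2.98% of all 32841 windows. Of the 7 members lower without overlap that had an entry, 2 held a match, and of the 14 that overlapped, 8 did. Usp18, Mx2, Rtp4 and Oas2, also lower without overlap, had no entry and were not searched. With so few members searched, these counts cannot show whether the match goes with separation of the arms. The windows below show the match in capitals with its neighbours, for both matching members that separated the arms and for Ifit3, which overlapped, on the strand of each gene. Isg15 is at chr4:156200865-156200894, Oas3 at chr5:120777715-120777744 and Ifit3 at chr19:34583397-34583426 (RefSeq, GRCm38.p6).
Isg15: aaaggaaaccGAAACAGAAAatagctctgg
Oas3: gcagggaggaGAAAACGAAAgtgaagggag
Ifit3: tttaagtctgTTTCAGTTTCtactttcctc

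Some genes that report RAS-ERK signalling also lay lower in B-started tumours. Of 15 tested, 4 were lower without overlap (26.7%) and none higher, with a median log2 fold change of -1.17. Etv5, an ETS factor induced by ERK, was at 6.49, 4.32 and 4.46 CPM in B-started and 293, 8.88, 199 and 95.3 CPM in Sca1-Lmo2 tumours (log2 fold change -4.87, SE 1.04, edgeR adjusted p = 0.121). WT thymus averaged 7.29 CPM, so Sca1-Lmo2 replicate 2 and the B-started arm lay near WT and the other 3 Sca1-Lmo2 tumours far above it. Dusp6, the ERK phosphatase, was at 5.91, 5.07 and 10.9 against 56.3, 12.9, 40.5 and 107 CPM (log2 fold change -2.89, edgeR adjusted p = 0.126), with a WT mean of 32.7 CPM. The summed level of the list was 180 to 265 CPM in B-started, 439 to 763 CPM in Sca1-Lmo2 and 194 to 219 CPM in WT libraries, so the B-started sums were near WT and the Sca1-Lmo2 sums above it. Spry1, an inhibitor of RAS activation, was at 1.5 to 2.90 against 4.42 to 17.1 CPM, and Dusp4 at 1.11 to 1.75 against 2.37 to 21.7 CPM. Without Sca1-Lmo2 replicate 2, 7 members were lower without overlap, beside 11.8% over all genes. Nras, a RAS gene itself, overlapped (edgeR adjusted p = 0.953).

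Receptors and kinases of the interleukin and JAK-STAT5 pathway followed the same direction. Of 17 tested, 5 were lower without overlap (29.4%), none was higher and the median log2 fold change was -0.93. Il2rb, a subunit of the IL-2 and IL-15 receptors, was at 1.37, 1.44 and 4.23 CPM in B-started and 13.8, 7.68, 6.70 and 15.5 CPM in Sca1-Lmo2 tumours (log2 fold change -2.21, edgeR adjusted p = 0.139). Jak1 was at 88.6, 104 and 148 against 383, 201, 207 and 153 CPM, so that the Aid-Cre tumour nearly reached Sca1-Lmo2 replicate 4. Pim1, a kinase induced by STAT5, was at 13.1 to 18.0 against 30.3 to 48.4 CPM (log2 fold change -1.26), and Il2rg, the common gamma chain, at 87.9 to 140 against 164 to 260 CPM. Il7r overlapped through Sca1-Lmo2 replicate 4, with 7.71 to 11.9 CPM in B-started tumours and 127, 57.9, 90.9 and 3.80 CPM in the other arm. By library totals without TMM 3 rather than 5 members were lower without overlap (8.37% over all genes), and without the Aid-Cre library 9 (19.4% over all genes). The median was -0.46 without Sca1-Lmo2 replicate 2.

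Chromatin and DNA methylation genes had the largest share of lower members. Of 21 tested, 9 were lower without overlap (42.9%) and 1, Eed, was higher, although the median log2 fold change was only -0.38. Cbx2, a Polycomb reader, was at 11.4, 14.0 and 9.51 CPM in B-started and 38.0, 21.5, 30.8 and 29.6 CPM in Sca1-Lmo2 tumours (log2 fold change -1.36, edgeR adjusted p = 0.121). Uhrf1, which guides maintenance DNA methylation, was at 236, 256 and 329 against 702, 453, 519 and 414 CPM (log2 fold change -0.93, edgeR adjusted p = 0.173). The de novo methyltransferase genes Dnmt3b (6.75 to 8.11 against 9.61 to 40.1 CPM) and Dnmt3a (69.0 to 74.6 against 97.8 to 146 CPM) lay on the same side, as did Tet1, Chd4, Ring1, Cbx8 and Ezh1. By library totals without TMM 6 members were lower without overlap (8.37% over all genes).

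**Figure D4:**
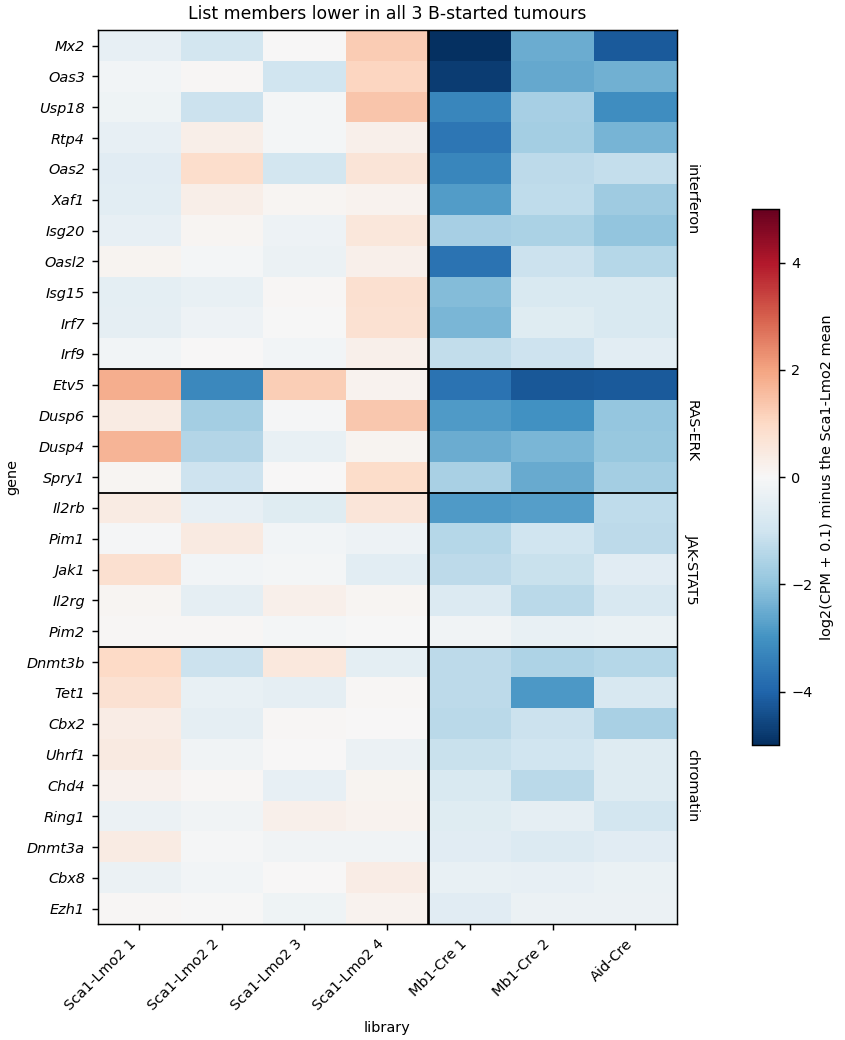
Members of the interferon, RAS-ERK, JAK-STAT5 and chromatin lists that were lower in all 3 B-started tumours, as log2(CPM + 0.1) minus the mean of the 4 Sca1-Lmo2 tumours, with 1 column per library. Members were shown because their arms did not overlap, so the blue right side is set by that choice. Differences are largest for Mx2 and Etv5, and Sca1-Lmo2 replicate 2 is low for the RAS-ERK genes.

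Among genes of the LMO2 complex and its reported program, 4 of 15 were lower without overlap (26.7%) and none was higher, with a median log2 fold change of -0.71. Ldb1, the dimerising partner of LMO2, was at 115, 126 and 124 CPM in B-started and 174, 197, 249 and 274 CPM in Sca1-Lmo2 tumours (log2 fold change -0.88, edgeR adjusted p = 0.157), although Pprc1 overlaps it. Tcf3, which encodes the E proteins E12 and E47, was at 159, 157 and 129 against 227 to 253 CPM (log2 fold change -0.70, edgeR adjusted p = 0.172). Gata3 and Tcf4 were the others. Without Sca1-Lmo2 replicate 2, 7 members were lower without overlap (11.8% over all genes), and without the Aid-Cre library 8 (19.4% over all genes). The bHLH partner gene Lyl1 overlapped widely, with 6.23, 2.70 and 31.4 CPM in B-started and 2.19 to 50.2 CPM in Sca1-Lmo2 tumours, and Tal1 was below the filter with at most 37 counts.

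T cell genes were lower where they separated the arms. Of 24 T cell identity genes 4 were lower without overlap (16.7%), namely Bcl11b, Fyn, Cd3e and Gata3, and the median log2 fold change was -0.32. Bcl11b, a T lineage commitment factor and T-ALL tumour suppressor, was at 139, 159 and 165 CPM in B-started and 447, 456, 269 and 235 CPM in Sca1-Lmo2 tumours (log2 fold change -1.19, SE 0.32, edgeR adjusted p = 0.144). Cd8a, the CD8 coreceptor, was in contrast higher without overlap, at 826, 583 and 673 against 467 to 521 CPM (log2 fold change 0.47, edgeR adjusted p = 0.333), while Cd4 overlapped (edgeR adjusted p = 0.636). Of the coreceptor and selection genes, Tox and Nr4a1 were among those lower without overlap. Dntt, which adds bases at receptor joints, overlapped (edgeR adjusted p = 0.776). Ly6d, a surface protein of lymphoid progenitors, was at 16.4, 40.0 and 7.57 CPM in B-started and 172, 533, 232 and 263 CPM in Sca1-Lmo2 tumours (log2 fold change -3.82, edgeR adjusted p = 0.116). It is part of the B lineage list, whose summed level was 108 to 183 CPM in B-started and 348 to 647 CPM in Sca1-Lmo2 tumours. Without Ly6d the sum was 105, 68.3 and 176 CPM against 347, 114, 328 and 84.8 CPM, and the arms overlapped. Over the 22 B lineage genes tested, 2 were lower (Ly6d and Vpreb3) and 2 higher without overlap (Btk and Fcrla), with a median log2 fold change of -0.19. At 9.09% each, these shares were near those over all genes (8.29% and 7.85%). Of 11 germinal centre and plasma cell genes none separated the arms.

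NOTCH genes largely overlapped. Notch1 was at 812, 197 and 595 CPM in B-started and 1127, 1402, 711 and 432 CPM in Sca1-Lmo2 tumours, against 65.0 to 98.4 CPM in WT thymus. The arms shared a wide range, and the log2 fold change of -0.78 was not called (edgeR adjusted p = 0.459). The Notch targets Hes1, Heyl and Dtx1 overlapped too. Hey1, another transcriptional repressor induced by Notch, was the 1 of 21 tested list members that separated the arms (4.76%, beside 7.85% higher over all genes). It had 293, 1156 and 365 counts in B-started tumours and 0, 2, 0 and 4 counts in Sca1-Lmo2 tumours. In CPM it stood at 6.79, 34.7 and 7.61 in the B-started arm, and it averaged 0.615 in WT thymus and 0.207 in Rosa26-Lmo2+Sca1-Cre tumours. It was high in the B-started arm alone but missed the threshold (edgeR adjusted p = 0.0719), and with so few counts in the other arm its fitted fold change depends on the prior count. Myc was at 90.9, 132 and 92.6 CPM in B-started and 206, 186, 203 and 77.0 CPM in Sca1-Lmo2 tumours (log2 fold change -0.68, edgeR adjusted p = 0.344). None of 29 MYC, nucleolus and ribosome biogenesis genes was higher without overlap and 1 was lower (3.45%).

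Of 22 T-ALL tumour suppressors and oncogenes tested, 3 were lower (Etv6, Bcl11b and Usp7) and 1 higher (Eed) without overlap. These were 13.6% and 4.55%, beside 8.29% and 7.85% over all genes. Etv6, an ETS repressor lost in some leukaemias, was at 18.1, 18.3 and 30 CPM in B-started and 68.3, 56.3, 52.8 and 42.2 CPM in Sca1-Lmo2 tumours (log2 fold change -1.31, edgeR adjusted p = 0.121). Fbxw7 (edgeR adjusted p = 0.647), which targets NOTCH1 and MYC for degradation and shares its span with Gm37240, and Cyld (edgeR adjusted p = 0.618), a negative regulator of NF-kB, overlapped.

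Part of the markers of myeloid cells lay higher in B-started tumours. Of 20 tested, 8 were higher without overlap (40.0%) and none was lower, with a median log2 fold change of 1.93. Lyz2, which encodes lysozyme of macrophages and granulocytes, was at 186, 704 and 263 CPM in B-started and 61.4, 29.8, 55.2 and 85.0 CPM in Sca1-Lmo2 tumours (log2 fold change 2.73, SE 0.52, edgeR adjusted p = 0.116). C1qb, a complement gene of tissue macrophages, was at 37.0, 241 and 50.7 against 6.44 to 25.4 CPM, and Cd14 at 5.14, 3.93 and 2.79 against 0.122 to 0.589 CPM. Mb1-Cre replicate 2 was the highest of the 7 for Lyz2 and C1qb. Csf1r and Adgre1, receptors that define macrophages, overlapped. The median was 1.34 without Mb1-Cre replicate 2. Without Mb1-Cre replicate 1, 15 were higher without overlap, beside 12.4% over all genes. WT thymus had a summed level of 230 to 445 CPM for this list. In these bulk samples more cells of a type and more RNA per cell cannot be told apart.

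Other non-T markers pointed the same way in part. Of 16 dendritic cell and MHC class II genes 4 were higher without overlap (25.0%), and H2-Aa, an MHC class II chain, was at 41.6, 108 and 89.9 CPM in B-started and 17.4 to 29.2 CPM in Sca1-Lmo2 tumours (log2 fold change 1.69, edgeR adjusted p = 0.121). Without Mb1-Cre replicate 1, 12 of the 16 were higher without overlap (12.4% over all genes), and with Sca1-Lmo2 replicates 1 and 3 merged 7 (9.99% over all genes). Of 6 adipocyte genes tested 3 were higher without overlap (50%), namely Fabp4, Lpl and Cd36, which macrophages express as well. The defining adipocyte genes Adipoq and Plin1 had 0 to 8 counts. Mgp and Col3a1, made by stromal cells, were higher without overlap, at 2.41 to 4.77 against 0.203 to 0.362 CPM for Mgp. Pecam1, listed with the endothelial genes, was lower, at 71.4 to 72.8 against 115 to 149 CPM. The endothelial genes Cdh5 and Kdr were below the filter, with at most 10 and 14 counts, so Pecam1 is uncertain as an endothelial marker here. Over the 9 stromal and endothelial genes tested, 2 were thus higher (22.2%) and 1 lower (11.1%) without overlap. Higher were 4 without Sca1-Lmo2 replicate 4 (11.9% over all genes) or Mb1-Cre replicate 2 (10.4%). Lower were 2 without Sca1-Lmo2 replicate 2 (11.8%) or the Aid-Cre tumour (19.4%). Of 16 BCL2 family genes tested, 3 were higher (18.8%) and 2 lower (12.5%) without overlap, beside 7.85% and 8.29% over all genes. Their median log2 fold change was -0.04. The higher ones were Bcl2a1a, Bcl2a1b and Bcl2a1d, near-identical copies that are prominent in myeloid cells. Bcl2a1b was at 6.35, 39.2 and 13.3 against 1.34 to 3.76 CPM. The part of myeloid cells in these values was not tested.

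**Figure D5:**
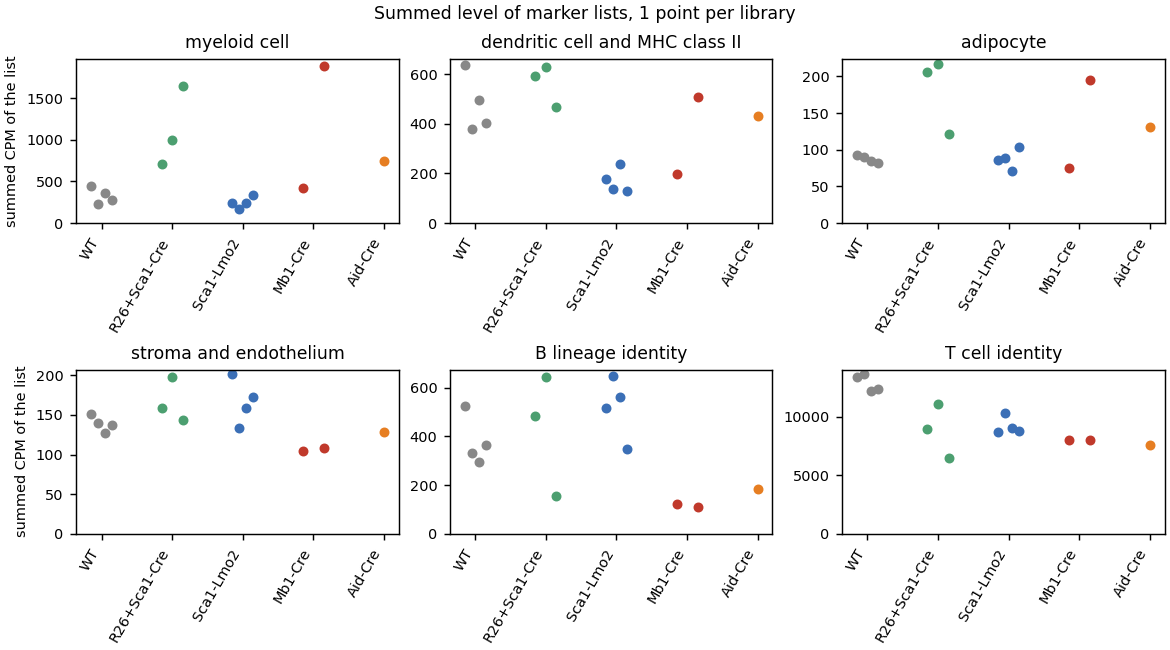
Summed CPM of 6 marker lists in each library, 1 point per library, with axes from 0. Myeloid markers are highest in Mb1-Cre replicate 2 (1882 CPM) and in the Rosa26-Lmo2+Sca1-Cre tumours, and the B lineage sum, which includes Ly6d, is lower in every B-started than in any Sca1-Lmo2 tumour, which does not hold without Ly6d.

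For genes whose arms did not overlap, at a level of 3 or more in mean log2 CPM, the largest differences after the called genes were looked up once the values were known. On the higher side stood Dgkh, a diacylglycerol kinase gene, at 46.4, 10.8 and 19.3 CPM in B-started against 0.272 to 1.83 CPM in Sca1-Lmo2 tumours. Sox5, an SRY-related factor, was at 35.6, 6.33 and 16.4 against 0.871 to 2.26 CPM, and Skap2, an adaptor of integrin signalling, at 9.27, 21.2 and 33.6 against 1.24 to 2.99 CPM. WT thymus held more of Sox5 and Skap2 than the Sca1-Lmo2 tumours did, with means of 17.1 and 12.04 CPM. The others on this side included Ear2, Ccl6, Atp6v0d2, Fcgr3, Gpnmb and Lgals3, which are known from macrophages. Ccl6 shares its span with E230016K23Rik, which held 1.02 times its counts. On the lower side, Strc, a gene known from the inner ear, was at 0.0834 to 0.0927 CPM in B-started and 2.45, 0.162, 1.56 and 78.3 CPM in Sca1-Lmo2 tumours, so that its difference rests mostly on replicate 4, and Ckmt1 overlaps it with 0.26 times its counts. Fam92a was at 0.347, 1.80 and 0.188 against 3.59 to 28.8 CPM, Podnl1 at 1.92 to 6.42 against 15.6 to 45.5 CPM and Fam160a2 at 5.49, 2.25 and 0.354 against 16.1 to 31.4 CPM. Etv5, Mx2 and Ly6d, given above, also belong to this side. Jup, which encodes the junction protein plakoglobin, was at 8.43, 3.78 and 17.7 against 61.7 to 124 CPM. Uaca was at 5.10, 10.8 and 13.2 against 33.0 to 171 CPM, above its WT mean of 3.94 CPM in every tumour of both arms. Rap1gap2, a GTPase activator of RAP1, was at 3.36 to 6.18 against 15.04 to 66.9 CPM. None of these was called, with edgeR adjusted p-values between 0.109 and 0.163.

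Receptor gene segments were summed per family as RNA levels, which do not show whether the DNA is rearranged. By PCR the study found clonal heavy chain gene rearrangements in Mb1-Cre and Aid-Cre tumours. Immunoglobulin heavy chain V segments totalled 1.14 and 1.47 CPM in the Mb1-Cre tumours and 21.3 CPM in the Aid-Cre tumour, and 3.33 to 37.4 CPM in Sca1-Lmo2 tumours. Kappa V segments totalled 4.22, 7.65 and 49.0 CPM and 12.99 to 63.3 CPM. The Mb1-Cre tumours were the lowest of the 7 and the Aid-Cre tumour was within the Sca1-Lmo2 range. The smallest p that an exact two-sided permutation test of 3 against 4 samples can give is 0.0571, so such a test cannot pass the threshold and the sums are given as values. The top T cell receptor beta V segment held 71.2% (95% Wilson interval 70.2 to 72.1) of Trbv counts in Mb1-Cre replicate 1 (Trbv20), 89.96% (89.4 to 90.5) in replicate 2 (Trbv4) and 47.9% (47.6 to 48.3) in the Aid-Cre tumour (Trbv13-2). In the Sca1-Lmo2 tumours it held 50.6% to 86.3%, and in WT thymus 12.5% to 13.5%. The leading beta segment thus differed among the 3 B-started tumours, although Trbv4 also led in Sca1-Lmo2 replicate 2 (69.4%). Intervals cover counting error only.

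By chromosome, the median log2 fold change of tested genes lay between -0.28 (chromosome 15, 603 genes) and 0.29 (chromosome 5, 1182 genes). Relative to WT, the median log2 level of chromosome 15 genes was 0.49, 0.04, 0.57 and 0.54 in the Sca1-Lmo2 tumours, and 0.39, 0.19 and -0.05 in the Mb1-Cre tumours and the Aid-Cre tumour. Chromosome 15 carries Myc, and its genes were raised in 3 of 4 Sca1-Lmo2 tumours and in Mb1-Cre replicate 1. In Mb1-Cre replicate 2 its value of 0.19 did not stand out, since chromosomes such as 1 (0.26) and 14 (0.46) were higher. For chromosome 14 the values were 0.40, -0.05, 0.25 and -0.25 in the Sca1-Lmo2 tumours and 0.39, 0.46 and 0.37 in the B-started tumours, so that every B-started tumour and Sca1-Lmo2 replicates 1 and 3 were raised. These medians are descriptions without a test.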

How the data were processed

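RNA of frozen thymus was sequenced by the authors as non-stranded TruSeq pairs and aligned with TopHat2 2.1.0 to mm10/GRCm38, after conversion with bcl2fastq (no version given). Values in the deposited table are raw counts, unscaled, for each gene and library. Genes are listed with their whole span, and the methods name bamsignals, which counts over a range, for values per gene, so reads in introns and overlapping genes can be included. Of 46948 lines, 46946 were kept after repeated lines were dropped.

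CPM were scaled by TMM (edgeR 4.0.16, R 4.3.3) and a gene was tested if it reached 1 CPM in 3 or more of 14 libraries. The 7 libraries were fitted with edgeR's quasi-likelihood method (two-sided, Benjamini-Hochberg over 17087 genes, threshold 0.05), and the SE was taken from the fold change and the F statistic. The study's own test was DESeq2 on pairs of groups. DESeq2 1.42.0, limma-voom (limma 3.58.1), other samples, scalings and filters, sex as a term, merged replicates and a replicate block were alternatives. The fit was tested on simulated data. Samples were grouped by title. Each library was taken as 1 sample, and since the labels name no animals, p-values measure only the spread between these samples. Total counts of 42985130 to 47667663 limit low genes, and reads carried no molecular identifiers.

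Named genes were Lmo2, called genes, at most 12 in each direction from those at 3 or more in mean log2 CPM whose arms did not overlap, driver genes and genes the study names. The 28 gene lists and the comparison were chosen with earlier results of these data known. The labels speak of frozen thymus and the methods of blast cells, which was not resolved. Upstream sequences were taken from RefSeq (GRCm38.p6). Shared spans are named where the other gene held at least 0.1 times the counts. Some genes are not reported here.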

Additional observations from a re-analysis of the deposited data

Results flagged for a closer look

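Within the Sca1-Lmo2 arm of 4 tumours, replicate 4 stood apart from the other 3 for some of the genes described, among them Myc, Dgkh and Strc. Strc was at 78.3 CPM in replicate 4 against 0.162 to 2.45 CPM. For Myc it held 77.0 CPM against 186 to 206 CPM, a gap to the nearest library of 0.849 of the arm's whole range. For Dgkh it held 1.83 CPM against 0.272 to 0.412 CPM, a gap of 0.91 of the range. Chance flags about 1 in 20 groups, and many genes were looked at.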

How the results depend on the processing

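The 9 called genes kept their direction in all 18 settings, the main one included, with adjusted p up to 0.250. The count of calls moved far more. It was 21 without a filter on low counts, 625 with all 14 libraries, 0 with sex as a term, 0 with Sca1-Lmo2 replicates 1 and 3 merged, 1432 with DESeq2 and 0 with limma-voom. Leaving out 1 library gave 0 to 37. Scaling by library totals gave 8 and a fit with all 10 tumours gave 6. The replicate numbers did not pair the samples (correlation of deviations 0.07 and -0.003 for the numbers shared). With a replicate block and without the Aid-Cre library 2 genes were called, against 1768 without the block in the same libraries, a fit added after seeing the data. Nras turned to -0.28 (log2) with the block and without the Aid-Cre library, and was at -0.19 without that library alone. Counts without overlap depend on scaling. With TMM factors from all listed genes, added after seeing the data, 1082 were higher and 1747 lower, and by library totals 1163 and 1430. By library totals the difference of summed Trav segments turned to -1.29 CPM. Leaving out 1 library moved the B-started minus Sca1-Lmo2 differences of summed CPM to -20.4 to 26.8 for Trav, -315 to 444 for Trbv, -0.0552 to 12.2 for Trdv, -10 to 2.58 for Trgv, -12.4 to 2.16 for Ighv, -22.8 to 3.14 for Igkv, -25.7 to 19.4 for Igkc, -8.74 to 1.91 for Igl and -164 to 29.6 for Igh constant genes. The top segment's share moved to -12.6 to 8.39 percentage points for Trbv and -3.7 to 0.396 for Trav. The cause was not tested. Depth limits genes with few counts, such as Hey1 in the Sca1-Lmo2 arm.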
